A study of Mus musculus with 2 samples.

Results

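The genes described here are 46 genes of mitotic chromosomes, kinetochores, spindle and cell division, taken by symbol from the 32285 genes listed for both libraries, and all 46 symbols matched exactly 1 listed gene. They were measured in splenic donor T cells after allogeneic hematopoietic cell transplantation (allo-HCT). Irradiated BALB/c (H-2d) mice received T cell-depleted marrow and purified splenic wild-type T cells from C57BL/6 (H-2b) donors. Donor T cells, sorted as CD45+, H2kb+, H2kd-, TCRβ+, were loaded on the 10x Genomics platform on day +7 and on day +14, with cells pooled from several spleens into 1 library per day. The library names carry the term PBS on both days, and the sort text gives day +7 for both libraries, so that the days here follow the sample titles. With 1 library per day there was no replicate spread and no test between days. Day and library cannot be told apart, and the intervals below are 95% exact intervals that cover counting error only.

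In dividing cells, cyclin A2 and cyclin B with the kinase Cdk1 drive entry into mitosis, condensin and topoisomerase II compact and untangle the chromosomes, and kinesins build the bipolar spindle. Kinetochores, assembled on the centromeric histone Cenpa, bind the spindle microtubules through the Ndc80 complex, and the spindle checkpoint holds the anaphase-promoting complex (APC/C) in check until every kinetochore is attached. The APC/C then acts through Cdc20 and Ube2c to mark cyclin B and securin (Pttg1) for destruction. Most of these genes are transcribed late in the cell cycle, after the replication genes, and many of their promoters carry a cell cycle genes homology region (CHR) and CCAAT boxes. Alloreactive donor T cells are known to divide rapidly in the spleen after transplantation.

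Promoter windows, from 250 bases before to 50 bases after the RefSeq transcription start (GRCm38.p6), were found for 39 of the 46 genes. The CHR letters TTTGAA stood on either strand in 31 of 39 windows (79.5%), against 20.2% of the 27025 genes with a window. CCAAT stood on either strand in 29 (74.4%), against 41.1%, and both motifs in 26 (66.7%), against 8.97%. Of the 36 replication genes with a window, 4 (11.1%) held TTTGAA and 22 (61.1%) held CCAAT, and an E2F-type motif (TTTGGCGC, TTTCCCGC, TTTGCCGC or TTTCGCGC on either strand) stood in 16 of them (44.4%), against 3 of the 39 mitosis genes (7.69%) and 2.60% of all genes. These are matches of letters and not shown binding sites. The genes whose windows held neither TTTGAA nor CCAAT were Pttg1, Birc5, Nuf2, Nusap1 and Ncaph. Their levels across CD8 cells were not alike. The log2 ratio of cells rich over cells poor in mitosis genes was 0.23 on day +7 and 0.20 on day +14 for Pttg1. For Nusap1 it was 5.12 and 4.50, the highest of the 46 genes, and the others lay between. Whether these motifs go with the levels was not tested. Stretches from 150 to 4 bases before the RefSeq start are shown for 5 genes whose levels across cells are described below, with TTTGAA and CCAAT on either strand in capitals. Cdc20 (chr4:118437347-118437493, minus strand) and Ube2c (chr2:164769779-164769925, plus strand) are APC/C partners whose RNA was over 2-fold below its peak in the cells with the most UMIs of replication genes. Cdk1 (chr10:69352916-69353062, minus strand) and Top2a (chr11:99024193-99024339, minus strand) stayed high in those cells, and Pttg1 (chr11:43425985-43426131, minus strand) differed least between cells rich and poor in mitosis genes. Up to 28 bases of the Cdc20, Ube2c and Cdk1 stretches lie in a first exon by GENCODE, which starts those transcripts further upstream. The whole Pttg1 window lies inside the GENCODE gene, whose 5′ end, at chr11:43426251, is further upstream.
Cdc20: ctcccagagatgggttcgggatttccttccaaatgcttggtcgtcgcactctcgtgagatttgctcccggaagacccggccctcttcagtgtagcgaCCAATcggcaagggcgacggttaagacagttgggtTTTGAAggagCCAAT
Ube2c: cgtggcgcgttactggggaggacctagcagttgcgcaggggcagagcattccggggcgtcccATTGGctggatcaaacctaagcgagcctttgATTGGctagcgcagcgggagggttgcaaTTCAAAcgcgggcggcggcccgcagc
Cdk1: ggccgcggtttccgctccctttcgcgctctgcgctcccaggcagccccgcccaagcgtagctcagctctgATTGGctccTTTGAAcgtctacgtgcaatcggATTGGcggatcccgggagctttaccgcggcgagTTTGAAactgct
Top2a: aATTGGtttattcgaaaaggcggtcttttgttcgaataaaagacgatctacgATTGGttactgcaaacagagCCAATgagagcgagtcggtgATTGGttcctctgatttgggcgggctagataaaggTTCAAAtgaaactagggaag
Pttg1: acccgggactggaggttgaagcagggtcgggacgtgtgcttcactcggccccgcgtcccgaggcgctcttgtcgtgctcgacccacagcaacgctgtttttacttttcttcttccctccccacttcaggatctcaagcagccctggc
In the Cdc20 stretch TTTGAA began 18 bases before the start, between CCAAT at 53 and at 8 bases. In the Ube2c stretch the reverse strand held TTTGAA 29 bases before the start and CCAAT at 57 and 88 bases. The Top2a stretch held 1 TTTGAA and 4 CCAAT, the Cdk1 stretch 2 of each, and the Pttg1 stretch none of either.

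Barcodes with 500 to 7500 detected genes and at most 15% mitochondrial UMIs were kept, which were 7179 of 7355 on day +7 and 7794 of 8043 on day +14. The kept cells held 86745047 and 83808218 UMIs, with medians of 9210 and 8144 UMIs a cell. The 2 libraries shared 20 barcode sequences, 17 of them among kept cells. Cells were gated on their own UMIs. The CD8 gate (a T cell receptor or CD3 UMI, Cd8a or Cd8b1, and no Cd4 or Foxp3) held 5741 and 5904 cells, the CD4 gate 453 and 692 cells, and the Foxp3+ gate 192 and 88 cells. The erythroid gate, whose cells the sort should not hold, had 122 and 20 cells. The remaining cells were in a myeloid gate (172 and 178 cells) or in no gate (499 and 912 cells). The CD4 gate was shallower on day +14, with a median of 5325 UMIs a cell against 8194, and its 6 mature neutrophil markers summed to 62.1 CPM against 11.0 CPM on day +7. The Foxp3+ gate held the genes of regulatory T cells, and Il2ra, Ikzf2, Ctla4, Tnfrsf18 and Tnfrsf4 summed to 1570 and 2278 CPM in it. They summed to 242 and 298 CPM in the CD8 gate and to 575.5 and 917 CPM in the CD4 gate. But 79.2% and 55.7% of the cells of the Foxp3+ gate had a Cd8a or Cd8b1 UMI and 17.2% and 31.8% a Cd4 UMI. It is therefore called the Foxp3+ gate and not a CD4 regulatory population.

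The mitosis genes were detected in the donor T cells on both days and differed little between them. In the CD8 gate the 46 genes together held 348959 UMIs on day +7 and 375375 on day +14, or 5249 and 5806 UMIs per 1000000 UMIs of the gate (CPM). The log2 ratio of day +14 over day +7 was 0.15 (interval 0.14 to 0.15). All 46 genes were above a mean of 10 CPM in the CD8 gate, so none was left out. None was past 1.5-fold in either direction in the CD8 gate, where 8.44% of 6826 genes tested were at least 1.5-fold higher on day +14 and 2.75% at least 1.5-fold lower. Over all kept cells the count was also 0 of 46, beside 8.45% of all genes higher and 2.67% lower. Of the 46 genes, 37 had a counting interval above 0 in the CD8 gate, 6 below 0 and 3 that held 0. Intervals were not counted over all genes. By the ratio alone, 39 of the 46 genes were above 0, beside 74.0% of the 6826 genes.

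Most genes tested were higher on day +14 on this scale, and the median log2 ratio over all genes tested in the CD8 gate was 0.18. The median of the 46 genes was 0.20, with 27 genes above the median of all genes and 19 below it. When the libraries were scaled by the median ratio of genes with at least 100 UMIs in each, which shifts every CD8 ratio by 0.22, the summed ratio became −0.07, 20 genes were above 0 and 26 below, and 19 of the 46 genes changed sign. The CPM ratios below are therefore given with the ratio relative to that shift, for which 1 CPM was added to both days first, so that at low CPM it differs a little from a plain subtraction, and a gene is called higher or lower only where both have the same sign.

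**Figure D1:**
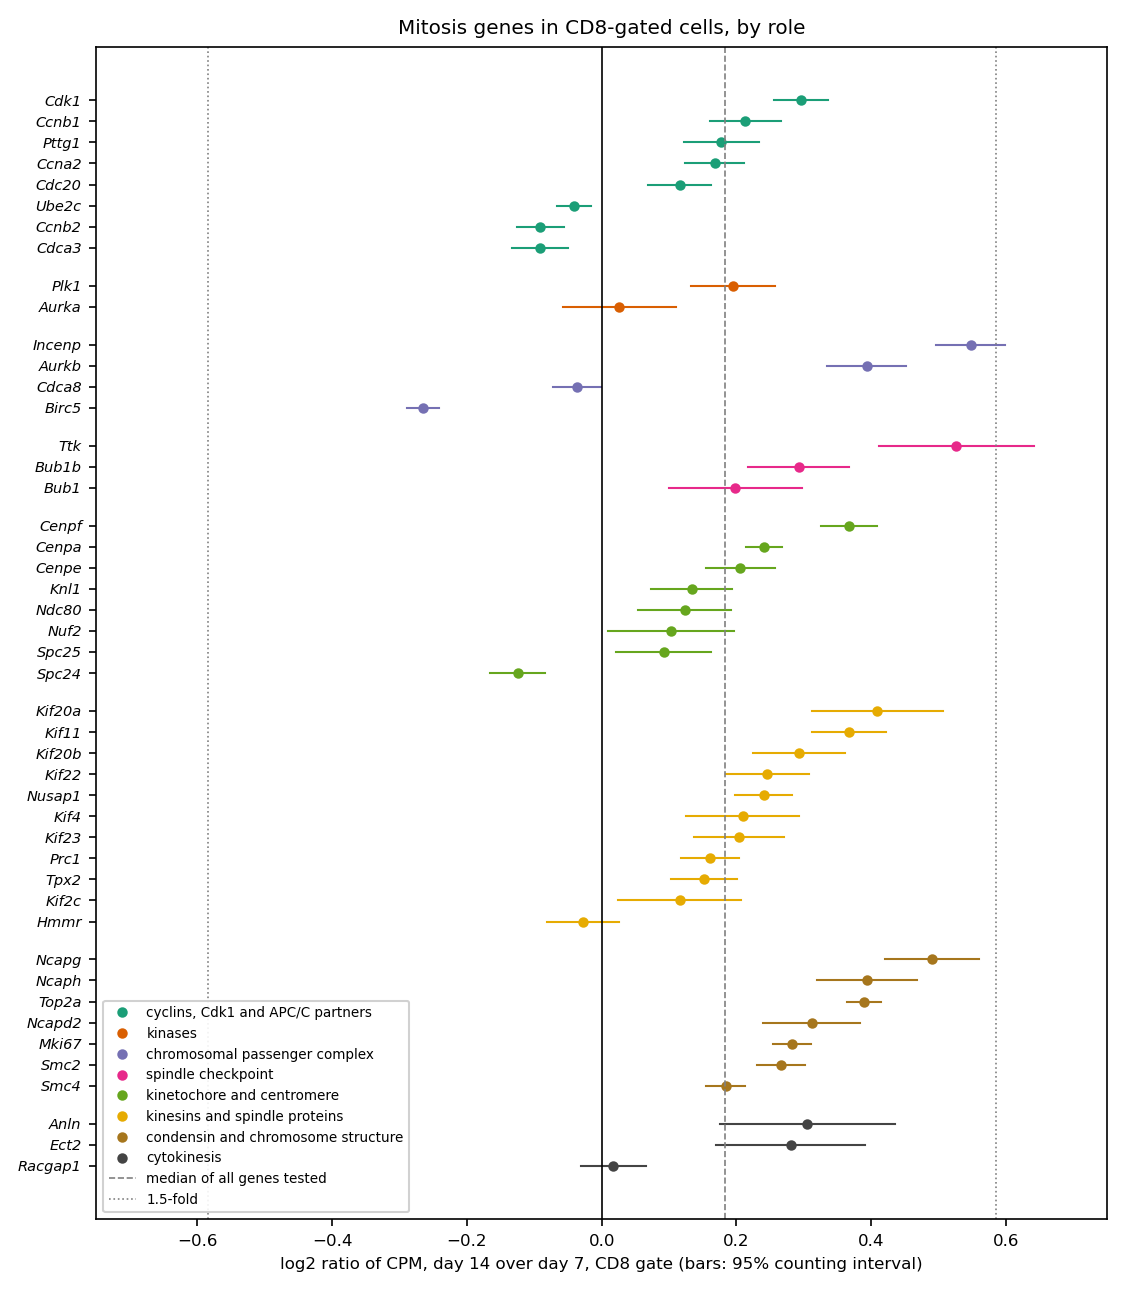
Log2 ratio of CPM, day +14 over day +7, for each of the 46 mitosis genes in the CD8 gate (1 library per day), grouped by role, with 95% counting intervals as bars. The dashed line marks the median of all genes tested at 0.18 and the dotted lines 1.5-fold, which no gene reached; Incenp lies highest at 0.55 and Birc5 lowest at −0.27.

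Summed over each role, the spindle checkpoint genes (log2 ratio 0.32) and the condensin and chromosome structure genes (0.30) had the highest CD8 ratios and the chromosomal passenger complex the lowest (−0.05). The summed CPM of the condensin and chromosome structure genes in the CD8 gate was 1215 on day +7 and 1497 on day +14 (log2 ratio 0.30). All 7 genes had ratios above 0, beside 74.0% of all genes tested. Top2a, topoisomerase II alpha, was at 342 and 448 CPM (log2 ratio 0.39, relative 0.17), and Ncapg, a condensin I subunit, was at 42.9 and 60.2 CPM (0.49, relative 0.26). Smc4, the core ATPase subunit of both condensins, was lowest of the group at 281 and 319 CPM, and its ratio of 0.18 turned to −0.03 relative to the shift. Top2a and Ncapd2 share exon positions with another gene on the same strand, so that their UMIs may include those of the neighbour or miss some of their own.

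The 4 genes of the chromosomal passenger complex, which corrects faulty kinetochore attachments and then guides cytokinesis, lay at both ends of the range. Incenp, the scaffold of the complex, was at 78.3 CPM on day +7 and 114 CPM on day +14, with a log2 ratio of 0.55 (interval 0.50 to 0.60, relative 0.32), the highest of the 46 genes. Aurkb, its kinase, was at 63.7 and 83.7 CPM (0.39, relative 0.17). Birc5 (survivin), its small targeting subunit, was at 486 and 405 CPM, with a log2 ratio of −0.27 (interval −0.29 to −0.24, relative −0.48), the lowest of the 46 genes. Cdca8 (borealin), which binds survivin, was at 192 and 187 CPM (−0.04, relative −0.25). Incenp and Aurkb were thus higher and Birc5 and Cdca8 lower on day +14 on both scales. The intervals of Incenp and Birc5 do not overlap in CPM. These genes were picked as the highest and lowest of the 46, so the gap between them is no test. The relative scale shifts all genes nearly alike and adds nothing to this gap. The 4 genes together were at 821 and 790 CPM.

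The spindle checkpoint genes gave few UMIs, and all 3 had ratios above 0, beside 74.0% of all genes tested. Ttk (Mps1), the kinase that starts checkpoint signalling, was at 15.9 and 22.8 CPM (log2 ratio 0.53, interval 0.41 to 0.64, relative 0.28). Bub1b (BubR1), part of the complex that inhibits the APC/C, was at 39.7 and 48.6 CPM (0.29, relative 0.07). Bub1 was at 23.7 and 27.2 CPM, and its ratio of 0.20 was −0.03 on the relative scale.

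Among the 8 kinetochore and centromere genes, Cenpa, the histone H3 variant of centromeres, held the most UMIs, at 314 and 371 CPM (log2 ratio 0.24, relative 0.02). Cenpf, a large kinetochore protein of late G2, was highest of the group at 126 and 162 CPM (0.37, relative 0.15). Spc24, a small subunit of the Ndc80 complex, was lowest at 155 and 142 CPM (−0.12, relative −0.34). Its partners in the complex had ratios above 0 in CPM, at 0.12 for Ndc80, 0.10 for Nuf2 and 0.09 for Spc25, and below 0 on the relative scale, at −0.10, −0.12 and −0.13.

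Among the cyclins, Cdk1 and APC/C partners, Ube2c, the ubiquitin-conjugating enzyme of the APC/C, held the most UMIs, at 402 CPM on day +7 and 391 CPM on day +14 (log2 ratio −0.04, relative −0.26). Cdk1 was highest of the group at 139 and 171 CPM (0.30, relative 0.08). Cdca3, which is degraded by the APC/C, was lowest at 148 and 138 CPM (−0.09, relative −0.31). Cyclin B2 (Ccnb2) had the same ratio of −0.09 at 206 and 193 CPM. Of the kinases, Plk1, which acts from mitotic entry to cytokinesis, was at 60.0 and 68.7 CPM (0.19, relative −0.03), and Aurka, the kinase of the spindle poles, was at 34.9 and 35.5 CPM (0.03, relative −0.19), within counting error in CPM.

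Of the 11 kinesins and spindle proteins, Nusap1, which bundles spindle microtubules, held the most UMIs at 125 and 147 CPM (log2 ratio 0.24, relative 0.02). Kif20a, a kinesin of the central spindle, was highest at 23.1 and 30.7 CPM (0.41, relative 0.18). Hmmr, a spindle pole protein, was lowest at 87.6 and 85.9 CPM (−0.03, relative −0.25), and its interval in CPM held 0. Of the cytokinesis genes, Anln (anillin), a scaffold of the contractile ring, was at 13.3 and 16.5 CPM (0.31, relative 0.07), and Racgap1, part of the central spindle complex that activates Ect2, was at 106 and 107 CPM (0.02, relative −0.20).

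In the CD8 gate the ratios were higher for genes with longer transcripts. Across the 46 genes the Pearson correlation of the CD8 log2 ratio with the log10 length of the longest annotated transcript was 0.37, and across 6823 genes it was 0.29, with quartile medians of 0.02, 0.16, 0.22 and 0.32 from the shortest to the longest. In the CD4 gate the correlation was −0.01 across the 46 genes and 0.23 across 6971 genes, and the median ratio was 0.04 for the 15 shorter and −0.07 for the 31 longer mitosis genes, split at the median length of all genes. The genes of each library share its depth, and genes are not independent replicates. The part of transcript length in the ratios of single genes was not tested. Birc5 and Incenp, named as the ends of the range, have longest annotated transcripts of 3334 and 3449 bases. Which of their transcripts the cells held was not examined.

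Against other gene lists in the CD8 gate, the mitosis genes lay close to further genes of mitosis and below the replication genes. A list of 60 further mitosis genes had 55 tested, with summed CPM of 2857 and 3215 (log2 ratio 0.17), and 1 gene past 1.5-fold, Pimreg at 14.3 and 22.6 CPM. The 46 replication genes (the MCM helicase, polymerases, Pcna and others) had 45 tested, with 3733 and 4548 CPM (0.28), and 2 genes past 1.5-fold, Mcm2 and Mcm6. These 3 genes were named after their values were seen, and all were higher on day +14. The replication-dependent histone genes went the other way, at 7770 and 3599 CPM (−1.11), with 33 of 38 tested genes at least 1.5-fold lower.

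In the CD4 gate the mitosis genes also differed little between the days. The 46 genes summed to 4549 CPM on day +7 and 4368 CPM on day +14, with a log2 ratio of −0.06 (interval −0.09 to −0.03). Its sign was opposite to that of the CD8 gate in CPM only: scaled by the median ratio, the sums were at −0.15 in the CD4 gate and −0.07 in the CD8 gate. In the subset of cells with at least 4000 UMIs, an alternative chosen after seeing the data, the ratio was 0.08, so the direction rests on the shallow cells, which were 13 of 453 on day +7 and 199 of 692 on day +14. None of the 46 genes was past 1.5-fold, beside 14.2% of 6974 genes higher and 2.82% lower. The interval lay above 0 for 5 genes, below 0 for 7 and held 0 for 34. By the ratio alone, 22 of the 46 genes were above 0, beside 68.2% of the 6974 genes. In CPM the ratio was lower in the CD4 gate than in the CD8 gate for 42 of the 46 genes. In CPM 17 genes were above 0 in the CD8 gate and below 0 in the CD4 gate, with 0 genes the other way. These counts were not made over all genes, on the relative scale or in the deeper cells. The median ratio over all genes tested was 0.16 in the CD4 gate and 0.18 in the CD8 gate, and the shifts to the relative scale were 0.09 and 0.22. Whether the gates differ between days was not tested.

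Single genes of the CD4 gate kept some of the CD8 pattern. Birc5 was at 362 and 288 CPM (log2 ratio −0.33, interval −0.43 to −0.23) and Incenp at 69.6 and 89.0 CPM (0.35, interval 0.14 to 0.57). Spc24 was at 125 and 101 CPM (−0.30), and Ube2c at 369 and 306 CPM (−0.27). Top2a, among the higher genes of the CD8 gate, was at 328 and 322 CPM in the CD4 gate (−0.03, interval −0.13 to 0.07). On the relative scale, on which CD4 ratios shift by 0.09, 11 genes were above 0 and 35 below. In cells with at least 4000 UMIs 33 genes were above 0 and 13 below.

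**Figure D2:**
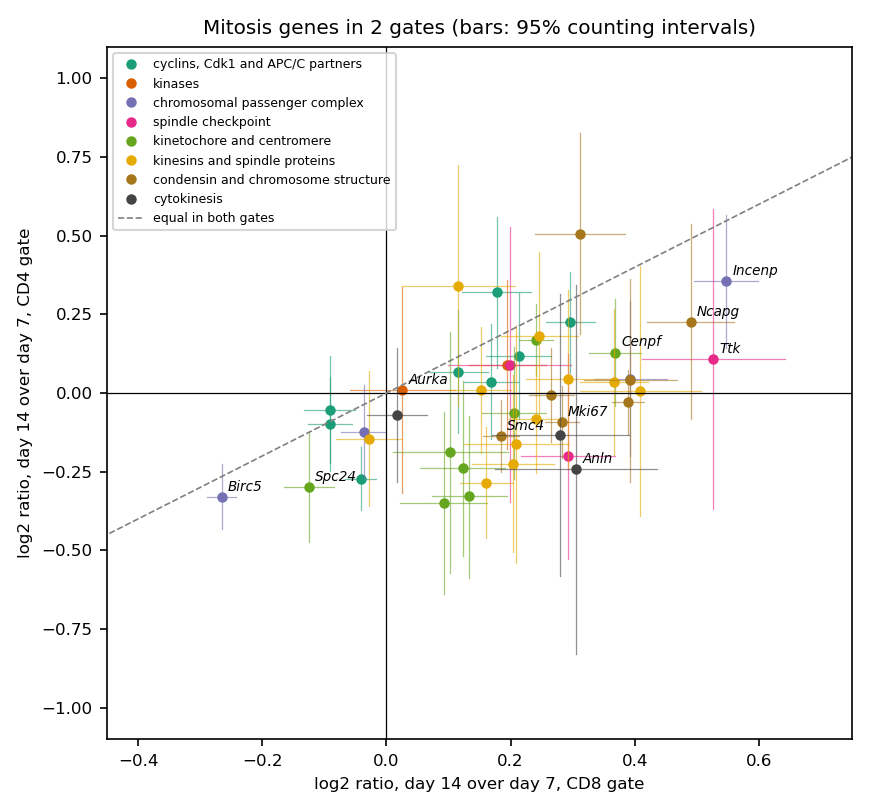
Log2 ratio of CPM, day +14 over day +7, of each of the 46 mitosis genes in the CD8 gate (horizontal axis) and the CD4 gate (vertical axis), colored by role, with 95% counting intervals as bars (1 library per day). Birc5 lies below 0 and Incenp above 0 in both gates, and 42 of 46 points lie below the dashed line of equal ratios, a count not made over all genes.

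In the Foxp3+ gate the 46 genes were at 4302 and 5374 CPM (log2 ratio 0.32, interval 0.27 to 0.37), and 9 genes were at least 1.5-fold higher and 0 lower, beside 17.1% of 6994 genes higher and 3.92% lower. The share of the 46 genes that was higher lay near that of all genes. The makeup of the Foxp3+ gate differed between the days, with 192 and 88 cells, of which 79.2% and 55.7% had a Cd8a or Cd8b1 UMI. The 9 genes were Aurkb, Ndc80, Kif11, Kif20a, Kif20b, Kif22, Kif4, Nusap1 and Anln, and the interval of Kif20a (−0.19 to 1.41) held 0. Aurkb was at 55.8 and 100.1 CPM (0.84, interval 0.47 to 1.22). Anln had the widest interval of the 9, with 20 and 26 UMIs and a log2 ratio of 1.73 (interval 0.83 to 2.64). Birc5, lower on day +14 in the CD8 and CD4 gates, had a log2 ratio of 0.03 (interval −0.14 to 0.20) here. In the erythroid gate the genes were at 4603 and 6625 CPM (0.53, interval 0.43 to 0.61), with 16 genes at least 1.5-fold higher, beside 25.9% of 6916 genes. That gate held 20 cells on day +14, and its erythroid check genes (Hba-a1, Hba-a2, Hbb-bs, Car2, Tfrc and Alas2) summed to 1698 CPM on day +7 and 16802 CPM on day +14, so that the makeup of the gate differed between the days.

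Seen cell by cell, the mitosis genes split the T cells into many with a few of the genes and a broad tail with many. Each cell with at least 4000 UMIs was thinned to 4000 UMIs, which kept 5641 and 5415 CD8 cells, and a cell was called mitosis-rich with at least 10 of the 46 genes detected. The median CD8 cell had 6 of the genes on day +7 and 8 on day +14. The limit of 4000 UMIs left out 100 CD8 cells on day +7 and 489 on day +14. The part of this unequal loss in the shares was not tested. Mitosis-rich cells were 40.2% (interval 38.9 to 41.5) of the CD8 cells kept on day +7 and 46.8% (45.4 to 48.1) on day +14. This class is a range of a number of genes and not a cell type, and 365 and 300 CD8 cells lay at 9 or 10 genes. Before thinning, mitosis-rich cells were deeper than the rest on both days, with median UMIs of 14120 against 7516 and of 13226 against 6759.

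Mitosis-rich cells were fewer in the CD4 gate, at 30.2% (interval 26.0 to 34.8) of 440 cells and 31.6% (27.6 to 36.0) of 493 cells. The limit of 4000 UMIs left out 13 CD4 cells on day +7 and 199 on day +14, so these shares cover the deeper cells only. With thinning to 2000 UMIs, day +14 minus day +7 was −5.06 percentage points in the CD4 gate, against 1.42 at 4000. In the Foxp3+ gate mitosis-rich cells were 35.3% of 187 cells and 46.1% of 76 cells, and the intervals of 28.5 to 42.6 and 34.6 to 57.9 overlapped. In the erythroid gate they were 68.4% of 114 cells and 81.8% of 11 cells. As a background, 38 and 43 cells that carried mature neutrophil markers were thinned to 1000 UMIs. At least 1 mitosis gene was found in 52.6% and 30.2% of them, against 74.1% and 77.9% of CD8 cells at that depth. At least 3 were found in 31.6% and 18.6% of them, against 44.2% and 47.6% of CD8 cells. Of these neutrophil-marked barcodes 52.6% and 62.8% also held a T cell receptor or CD3 UMI, so that they are not a clean measure of free RNA.

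**Figure D3:**
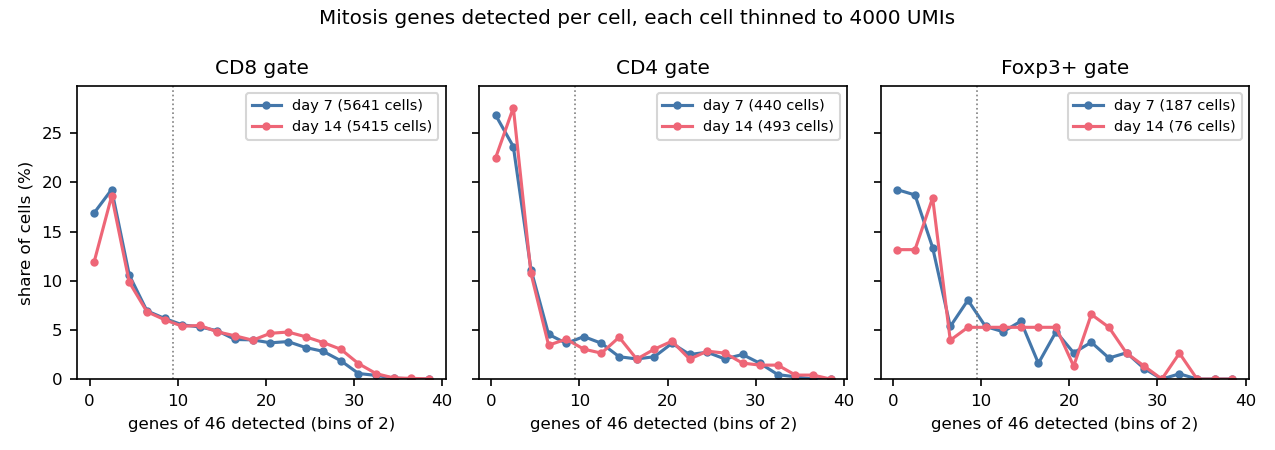
Share of cells with at least 4000 UMIs (vertical axis, %) by the number of the 46 mitosis genes detected (horizontal axis, bins of 2) in the CD8, CD4 and Foxp3+ gates, each thinned to 4000 UMIs. The dotted line marks the limit of 10 genes; CD8 cells with 0 or 1 gene were 16.9% on day +7 and 11.9% on day +14.

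The mitosis genes were then set against the 46 replication genes in the same CD8 cells. Among CD8 cells with at least 4000 UMIs, those with at least 10 replication genes were 36.9% on day +7 and 51.4% on day +14. This was a larger difference than for the mitosis genes. Cells rich in both were 24.0% and 32.9%, cells rich in replication genes only were 12.8% and 18.5%, and cells rich in mitosis genes only were 16.1% and 13.9%. Cells rich in neither were 47.0% and 34.8%. Among mitosis-rich cells, 59.8% on day +7 and 70.4% on day +14 were also rich in replication genes. The ratio of mitosis to replication UMIs was 1.41 on day +7 and 1.25 on day +14. Across CD8 cells, the number of mitosis genes detected and of replication genes detected correlated at a Pearson r of 0.41 and 0.32. Summed mitosis UMIs and summed histone UMIs correlated at 0.60 and 0.64, an unlike measure that is not to be set against the first. Cells of 1 library share its preparation, and the values are a description.

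**Figure D4:**
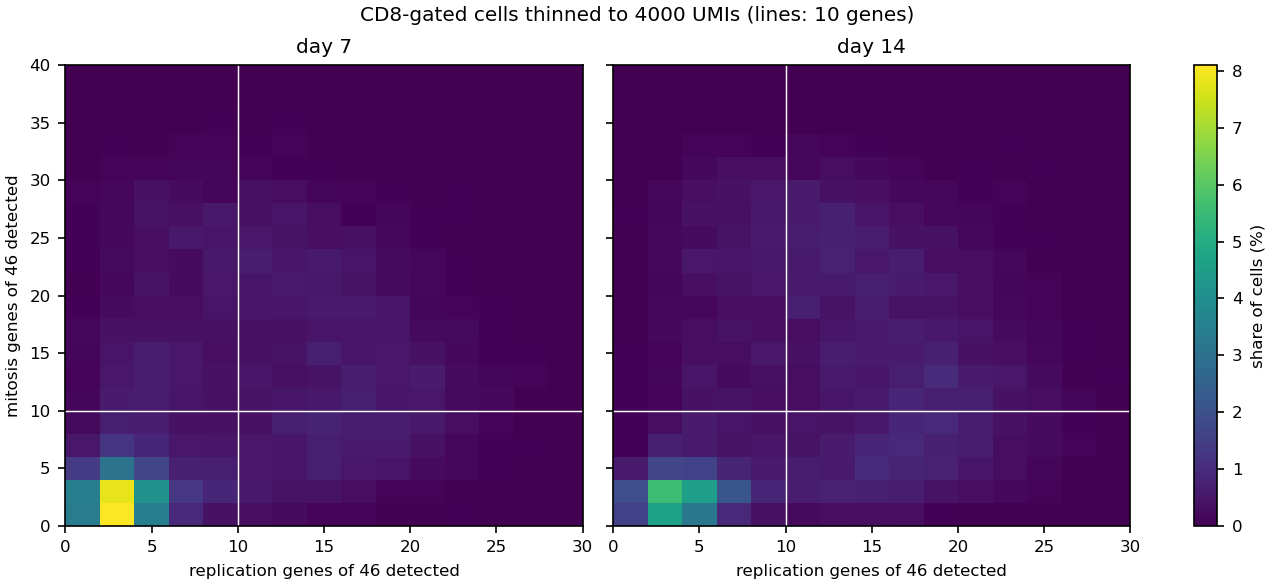
Share of CD8 cells (color, %) by number of replication genes (horizontal axis) and of mitosis genes (vertical axis) detected, in bins of 2 genes, on day +7 and day +14, with every cell thinned to 4000 UMIs. The densest bins lie at low numbers of both and hold 8.10% of cells on day +7 and 5.56% on day +14; white lines mark 10 genes.

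Ordering CD8 cells by their replication UMIs, which did not use the mitosis genes, placed the mitosis genes in much the same order in both libraries. In cells with 0 to 4, 5 to 9, 10 to 19 and 20 or more replication UMIs, the summed mitosis genes were at 1897, 4223, 6752 and 5235 CPM on day +7 and at 1966, 4435, 7215 and 5319 CPM on day +14. The peak was in the third bin for 36 genes on day +7 and 39 on day +14, and in the top bin for 10 and 6. The bin of the peak was the same on both days for 39 of the 46 genes. Since most genes peaked in the third bin on each day, many of these matches follow from those counts alone. The log2 ratio of the top over the lowest bin correlated between the libraries at a Pearson r of 0.94 over the 46 genes.

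The 5 genes with the lowest ratio of the top over the third bin on day +7 were Ube2c, Cdc20, Cenpf, Cenpa and cyclin B1. Ube2c was at 208, 421, 542 and 222 CPM over the 4 bins on day +7 and at 189, 399, 542 and 217 CPM on day +14, a log2 ratio of the top over the third bin of −1.28 and −1.32. Cdc20, the activator of the APC/C, had ratios of −1.20 and −1.12, Cenpf of −1.05 and −1.55, Cenpa of −0.87 and −0.98 and cyclin B1 of −0.87 and −0.97. Kif2c reached −0.99 on day +14 but was at −0.25 on day +7. At the other end, Ncaph, Ndc80, Smc2, Top2a and Aurkb peaked in the top bin on both days. The counting intervals of the third and top bins were apart on both days for Ncaph only. They overlapped for Ndc80 and Aurkb on both days, for Smc2 on day +14 and for Top2a on day +7. Ncaph, the kleisin of condensin I, was at 6.51, 14.0, 41.5 and 57.7 CPM on day +7 and at 9.17, 20.1, 53.7 and 68.7 CPM on day +14. Top2a showed the largest span from the lowest to the top bin, with log2 ratios of 3.17 and 2.92.

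Pttg1 was close to even across these cells. It was at 74.5, 78.8, 81.7 and 72.4 CPM over the 4 bins on day +7 and at 79.4, 104.7, 93.5 and 78.5 CPM on day +14. Its ratio of the top over the lowest bin was −0.04 and −0.02, the lowest of the 46 genes on both days. Cenpa at 0.02 and 0.17, Ube2c at 0.09 and 0.20 and, on day +14, Cenpf at 0.16 were close to it on this measure but peaked in the third bin, and the median gene had 1.87 and 1.75. In mitosis-rich cells, counted on the other 45 genes, Pttg1 was at 83.8 CPM on day +7 against 71.3 CPM in the rest, and at 93.9 against 81.5 CPM on day +14, a log2 ratio of 0.23 and 0.20. The next lowest gene was Ccnb2 at 1.49 on day +7 and Cenpa at 1.63 on day +14. The median gene had 3.35 and 3.14, and Nusap1 the highest ratios, 5.12 and 4.50.

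**Figure D5:**
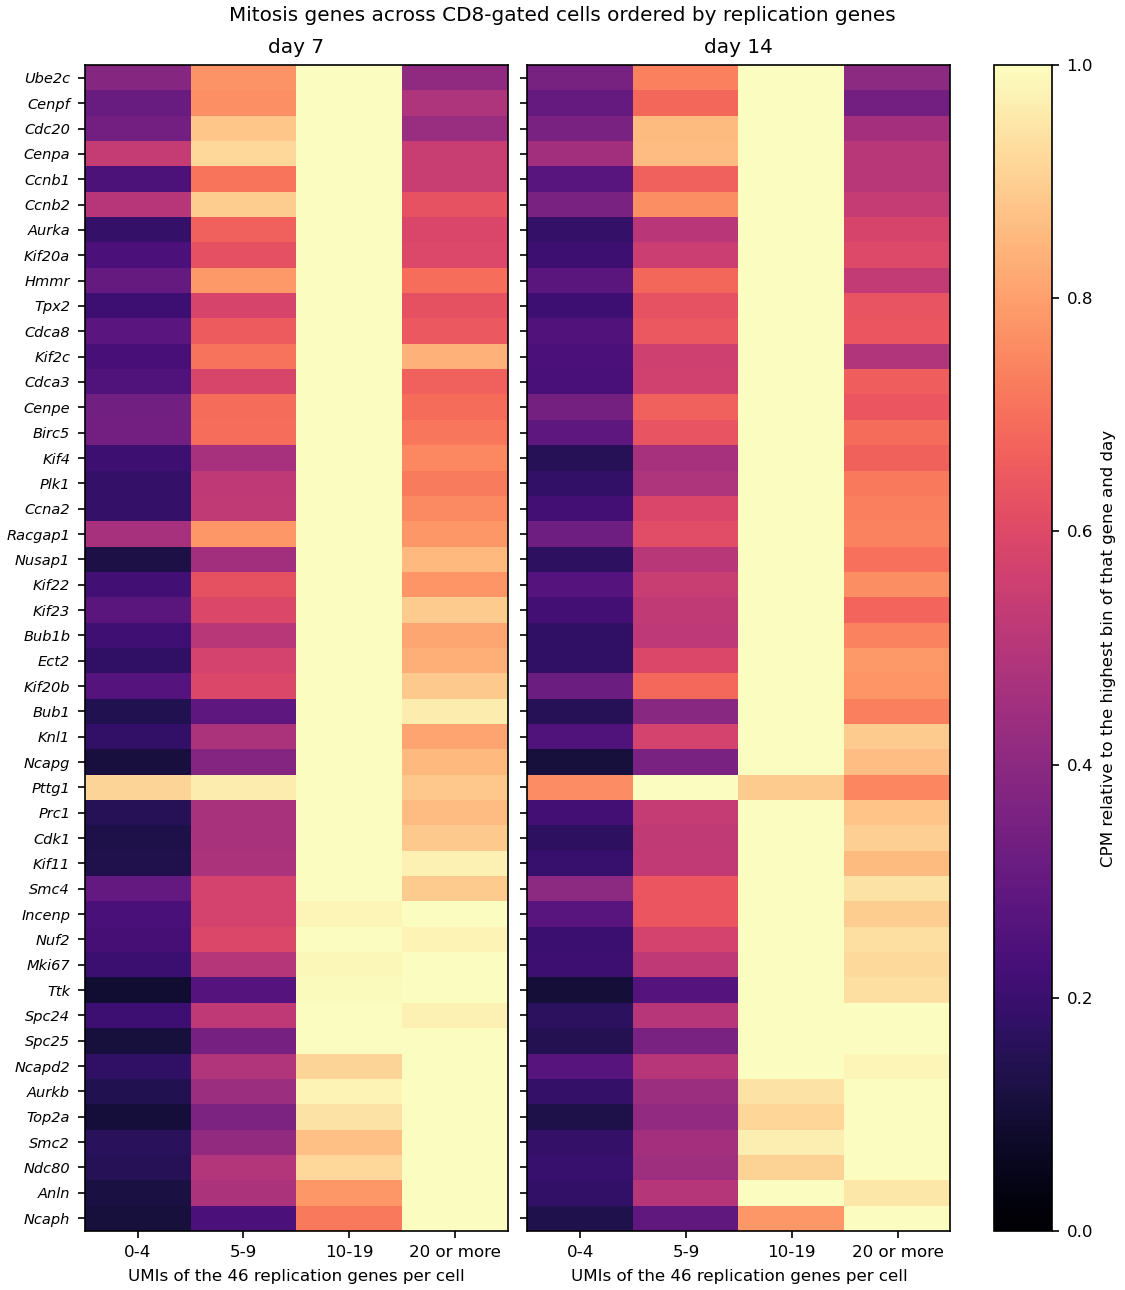
CPM of each of the 46 mitosis genes in CD8 cells grouped by their UMIs of replication genes (horizontal axis), relative to the highest bin of that gene and day (color), for day +7 and day +14. Genes are ordered by the ratio of the top over the third bin, from Ube2c at the top to Ncaph at the bottom; Pttg1 is close to even across the bins on both days.

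Levels within the mitosis-rich CD8 cells, with each gene itself left out of the count of at least 10, were compared between days to set the level in such cells apart from their number. The median log2 ratio of the 46 genes there was 0.14 in CPM, with 37 above 0 and 9 below, and −0.08 after plain subtraction of the CD8 shift, with 13 above 0 and 33 below. In CPM, a count not made over all genes, the interval lay above 0 for 26 genes and below 0 for 3. Those 3 were Birc5 at 800.3 and 658 CPM (−0.28, interval −0.33 to −0.23), Spc24 at 233 and 204 CPM (−0.19) and Cdca3 at 236 and 214 CPM (−0.14). Incenp was at 120 and 171 CPM (0.51, interval 0.40 to 0.62) and Ttk at 24.7 and 35.1 CPM (0.51, interval 0.26 to 0.76), and both stayed above 0 relative to the shift, at 0.29. The ratios of Incenp and Birc5 inside the mitosis-rich cells were close to those over the whole CD8 gate, 0.55 and −0.27, of which these cells are a part. In the other CD8 cells the relative differences had the same direction and were larger. There Incenp was at 15.7 and 26.6 CPM and Birc5 at 170 and 101 CPM.

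Outside the mitosis-rich cells, Birc5 and Ube2c were seen in a smaller share of CD8 cells on day +14 and Top2a in a larger one. A Birc5 UMI was present in 34.1% of the other cells on day +7 and 24.4% on day +14, and a Ube2c UMI in 33.2% and 20.6%. A Top2a UMI was present in 14.2% and 24.1%. Cenpa was seen in 34.2% and 37.1% of them. The part of free RNA in these shares was not tested.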

How the data were processed

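Single-cell RNA-seq libraries of sorted splenic donor T cells, 1 per day, were used as the deposited UMI counts per gene and barcode. Per the labels and the paper's methods, the authors made these counts with Cell Ranger 6.1.2 on the mm10 build and kept the barcodes that passed its cell detection, without normalization. Doublets were kept here, since Scrublet scores serve as an alternative. UMIs were summed per gate and expressed per 1000000 UMIs of the gate. Comparisons across genes took those whose 2 libraries averaged 10 CPM or more, with 1 CPM added before the log2 for the 1.5-fold counts, for medians and counts over genes and for the relative ratios, and not for other single-gene ratios. Intervals are exact Poisson, Clopper-Pearson or conditional binomial. Thinning drew 4000 UMIs a cell without replacement (seed 1). The calculations were tested on simulated counts. Analyses used Python 3.11.15, numpy 2.4.6, scipy 1.17.1, pandas 2.3.3 and scanpy 1.11.5, with GENCODE M21 transcript lengths and RefSeq promoters (GRCm38.p6). The strand setting of the counting is not given in the sources used here, and 11 of the genes overlap an antisense exon. In each of 8 role groups, the genes named were those with the most UMIs and with the highest and lowest CD8 ratio. Any other gene named was picked with its values in view. The 46 genes, the comparison lists and the gates were chosen with earlier results of these data known.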

Additional observations from a re-analysis of the deposited data

Results flagged for a closer look

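The summed mitosis genes had opposite signs in the CD4 and CD8 gates, with a log2 ratio of day +14 over day +7 of −0.06 in the CD4 gate and 0.15 in the CD8 gate. The difference of CD4 minus CD8 was −0.20. With 1 library per day this difference between gates was not tested. The opposite signs hold in CPM: scaled by the median ratio, both gates were below 0, at −0.15 and −0.07. In cells with at least 4000 UMIs both gates had a ratio above 0, at 0.08 and 0.16. The CD4 gate on day +14 was shallower than on day +7 and carried more mature neutrophil marker UMIs, and the part of depth and of those UMIs in the difference was not tested beyond that restriction.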

How the results depend on the processing

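No paired analysis was possible because each day is 1 library. Of 72 recomputed values, 52 stayed within the counting interval or within 1.5 times the count of the value first given, 20 moved beyond it, and 4 of these turned sign. The number of mitosis genes past 1.5-fold stayed at 0 in all kept cells, the CD8 gate and the CD4 gate under every alternative tried. Scaling by the median ratio turned the summed log2 ratio to −0.0545 in all cells and −0.0719 in the CD8 gate, and gave −0.15 in the CD4 and 0.25 in the Foxp3+ gate. The mean of per-cell CPM gave 0.13, 0.18, −0.25 and 0.27 in all cells and the CD8, CD4 and Foxp3+ gates. Leaving out the highest Scrublet scores, which removed 433 and 518 barcodes, gave 0.147 in all cells and 0.271 in the Foxp3+ gate. Cells with at least 4000 UMIs, chosen after seeing the data, gave 0.18 in all cells and 0.16 in the CD8 gate, and turned the CD4 ratio to 0.0777. Thinning to 2000 UMIs changed the difference in mitosis-rich cells, day +14 minus day +7, from 6.59 to 4.41 percentage points in the CD8 gate and from 1.42 to −5.06 in the CD4 gate. The share of mitosis-rich CD8 cells also rich in replication genes became 79.5% and 90.3% with at least 5 genes of each list, and 19.3% and 28.6% at 2000 UMIs. A lower limit or fewer UMIs alters how many cells can reach each class, so these shares are not on the same scale. With 2000 UMIs and halved bins 13 genes peaked in the top bin on day +14. The cause of these changes was not tested. The number of cells and of UMIs limits the CD4, Foxp3+ and erythroid gates most, where most intervals of single genes held 0.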

Other observations

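Further groups of cells showed the same order of days. In the myeloid gate, in which a T cell receptor or CD3 UMI was present in 72.7% and 80.9% of cells, mitosis-rich cells were 39.5% of 152 cells on day +7 and 50.3% of 147 cells on day +14, with overlapping intervals of 31.6 to 47.7 and 42.0 to 58.7. Among cells in no gate, they were 31.8% (interval 27.5 to 36.3) of 447 cells and 44.2% (interval 40.5 to 48.0) of 683 cells. The limit of 4000 UMIs had left out 20 and 31 myeloid cells, and 52 and 229 cells in no gate. Of the further mitosis genes in the CD4 gate, Zwint, a kinetochore protein, was at 37.9 and 62.7 CPM (log2 ratio 0.73, interval 0.45 to 1.00) and Kifc1, a spindle kinesin, at 13.6 and 22.1 CPM (0.70, interval 0.24 to 1.17). Both were named after their values were seen, and 51 genes of that list were tested there.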
